A study of Homo sapiens with 15 samples.

Results

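The proteasome genes were defined as all protein-coding genes whose symbols begin with PSMA, PSMB, PSMC, PSMD, PSME or PSMG. All 49 had a probe on the arrays, joined through the RefSeq accession of the probe, and 48 of them were tested among 26826 features. The study asked how A2058 cells, an established human melanoma line, change their transcripts after 8 hours with a mitochondrial complex I inhibitor. NP was given at 3 μM with DMSO as its vehicle, and the biguanides metformin (MET, 5000 μM) and phenformin (PHEN, 50 μM) were given in water (W), with 3 replicates in each of these 5 groups and 15 arrays in all. No other agent or genetic change is named for any group. The labels name the compound NP and the series names neopetasin, whereas the study describes petasin (PT) at the same dose and time, and the label NP is kept here. One cell line was used, and a single time point cannot show earlier or later changes.

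The 26S proteasome is the protease that degrades proteins tagged with ubiquitin. Its 20S core is a barrel of outer alpha rings and inner beta rings, and only PSMB5, PSMB6 and PSMB7 among the constitutive beta subunits carry active sites. Interferon-induced PSMB8, PSMB9 and PSMB10 replace them in the immunoproteasome, which favors peptides for class I antigen presentation. The 19S cap recognizes, deubiquitinates and unfolds substrates, through a base with the PSMC ATPases and a lid that holds the deubiquitinase PSMD14. PSMG proteins and PSMD5, PSMD9 and PSMD10 assist assembly, and PSME proteins are alternative caps. When proteasome activity falls, the transcription factor NFE2L1 (NRF1), after processing by NGLY1 and DDI2, raises transcription of the subunit genes together.

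Values are log2 spot intensities minus the 75th percentile of the array, so that a level of 0 is the brightness of the 75th percentile probe. Differences were tested in limma, where the replicate number served as a block, and a differentially expressed gene (DEG) had at least a 1.5-fold change and a Benjamini-Hochberg adjusted p of at most 0.05 over all features. The labels do not say whether replicates were separate cultures, so p-values measure the spread between these arrays. The arrays lay on 4 slides, with DMSO and NP on one pair and W, MET and PHEN on the other pair. DMSO and NP arrays had 25804 to 32056 probes well above background and the other arrays had 31408 to 45044, with W replicate 1 and MET replicate 1 at 45044 and 44451. Of 9 melanocyte and melanoma markers, 8 were above background on all 15 arrays, the exception being TYR. Of 14 markers of keratinocytes, fibroblasts and leukocytes with a matched probe, 6 were above background on all 15 arrays, and the keratinocyte genes KRT5, KRT1 and CDH1 on none.

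With the probe used, 47 of the 49 proteasome genes exceeded background on each of the 15 arrays. PSMA8, the alpha subunit of the testis, was above background on no array and was not tested. PSMB11, the catalytic subunit of the thymus, was above background on all 9 W, MET and PHEN arrays and on none of the 6 DMSO and NP arrays, so that no fold change is given for NP. The other 47 genes spanned the 7 alpha subunits, 7 constitutive and 3 immune beta subunits, 17 cap subunits, 7 assembly chaperones, 4 activators and PSMC3IP and PSME3IP1. The latter pair carry the symbol but are no subunits, the first being a factor of meiotic recombination and the second a partner of PSME3. Replicates of the proteasome genes lay close together, with a median SD of 0.11 in DMSO, 0.10 in NP, 0.16 in W, 0.11 in MET and 0.08 in PHEN. Over all features the median SD was 0.26, 0.26, 0.22, 0.21 and 0.13 in the same order.

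The promoters of PSMD3, PSMC4, PSME1 and PSME2 are shown first, as 300 bases of RefSeq sequence (GRCh38.p14) with the start site after base 250. Promoters of 43 of the 49 genes were matched by symbol, and PSMA7, PSMB1, PSMB6, PSMB7, PSMD4 and PSMG3 were not matched. PSMD3 and PSMC4 were picked for display after their values were seen, with differences in opposite directions with NP and MET. Other genes ran in opposite directions too, among them PSMD13 (-0.12 and 0.041) and PSMG1 (0.042 and -0.18). In PSMD3 and PSMC4 the capitals mark TGACNNNGC, the core of the antioxidant response element that NFE2L1 reads, on either strand. PSME1 and PSME2, which encode partners in 1 activator, are shown with the core of the interferon-stimulated response element in capitals on either strand. Both also hold TGACNNNGC, which is not marked in them.
PSMD3, chr17:39980557-39980856, + strand: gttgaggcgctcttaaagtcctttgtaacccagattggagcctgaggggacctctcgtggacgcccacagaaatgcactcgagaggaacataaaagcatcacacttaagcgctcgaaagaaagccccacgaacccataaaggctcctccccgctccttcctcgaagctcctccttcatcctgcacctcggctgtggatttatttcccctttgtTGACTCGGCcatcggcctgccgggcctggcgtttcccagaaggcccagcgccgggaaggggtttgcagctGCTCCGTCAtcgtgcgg
PSMC4, chr19:39970915-39971214, + strand: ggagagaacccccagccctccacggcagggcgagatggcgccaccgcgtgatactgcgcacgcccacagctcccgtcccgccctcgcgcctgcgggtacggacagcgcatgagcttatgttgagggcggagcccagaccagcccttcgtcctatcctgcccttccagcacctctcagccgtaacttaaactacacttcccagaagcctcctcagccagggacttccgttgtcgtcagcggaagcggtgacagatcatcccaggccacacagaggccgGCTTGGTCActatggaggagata
PSME1, chr14:24135944-24136243, + strand: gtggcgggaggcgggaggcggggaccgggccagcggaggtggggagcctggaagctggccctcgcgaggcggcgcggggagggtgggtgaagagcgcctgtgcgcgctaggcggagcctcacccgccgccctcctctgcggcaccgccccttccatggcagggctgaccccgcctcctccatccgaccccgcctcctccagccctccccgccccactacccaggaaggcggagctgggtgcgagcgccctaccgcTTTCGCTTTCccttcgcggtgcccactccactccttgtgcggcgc
PSME2, chr14:24146561-24146860, - strand: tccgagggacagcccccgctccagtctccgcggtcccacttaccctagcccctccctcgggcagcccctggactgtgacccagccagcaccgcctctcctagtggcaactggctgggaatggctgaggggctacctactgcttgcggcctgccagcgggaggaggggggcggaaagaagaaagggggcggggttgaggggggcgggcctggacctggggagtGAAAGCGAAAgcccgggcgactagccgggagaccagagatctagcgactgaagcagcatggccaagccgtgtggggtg

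In PSMD3 the antioxidant core stood once on each side of the start site, and in PSMC4 once after it. TGACNNNGC was found on either strand in 15 of 43 proteasome promoters (34.9%) and in 16.1% of 27305 promoters of the same length. The core of the interferon-stimulated response element was found in 7 of 43, those of PSMA4, PSMB4, PSMB8, PSMB10, PSME1, PSME2 and PSMG4, and in 4.38% of all promoters. The CCAAT box was found in 22 of 43 (51.2%) against 39.7%. TGATGNAA, the core bound by C/EBP-ATF dimers such as those of ATF4, was found in 0 of 43 and in 4.46% of all promoters. A base could belong to more than 1 of these matches, and a match is a run of letters in this window and not a binding site.

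With NP, transcripts of the proteasome stayed within a narrow band around DMSO. No proteasome gene was a DEG, against 0.0373% of all features (10 of 26826), and none passed an unadjusted p of 0.05 in limma, against 2.81% of features that were higher and 1.88% that were lower. These calls depended on the design. At an unadjusted p, PSMD3 passed with the replicate block numbered within each vehicle set (11.5% of features did) and with only the groups compared in the fit (7.35%), and PSMD14 passed with normexp (2.18%). The methods' paired t-test passed 6 of the 48 genes (PSMB10, PSMD1, PSMD3, PSMD11, PSMD13 and PSME3) and 7.60% of features. The median log2 fold change of the 47 genes without PSMB11 was -0.045, with 10 above 0 and 37 below. That of all features was -0.014, with 46.2% above 0. For 46 of the 48 the 95% interval lay within a 1.5-fold change in either direction, compared with 53.4% of all features, and the exceptions were PSMB11 and PSMD14. Of the 48 genes, 16 were lower with NP in all 3 replicate pairs (33.3%, against 18.8% of features), and 2 were higher in all 3 pairs (4.17%, against 14.3%). Of the 17 cap genes, 10 were lower in all 3 pairs, and their median was -0.08, with pair medians of -0.083, -0.024 and -0.084. The 14 constitutive core genes had a median of -0.023, with pair medians of -0.09, 0.0048 and -0.024. Leaving out DMSO replicate 1 brought the median of the 48 genes to -0.0061.

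**Figure D1:**
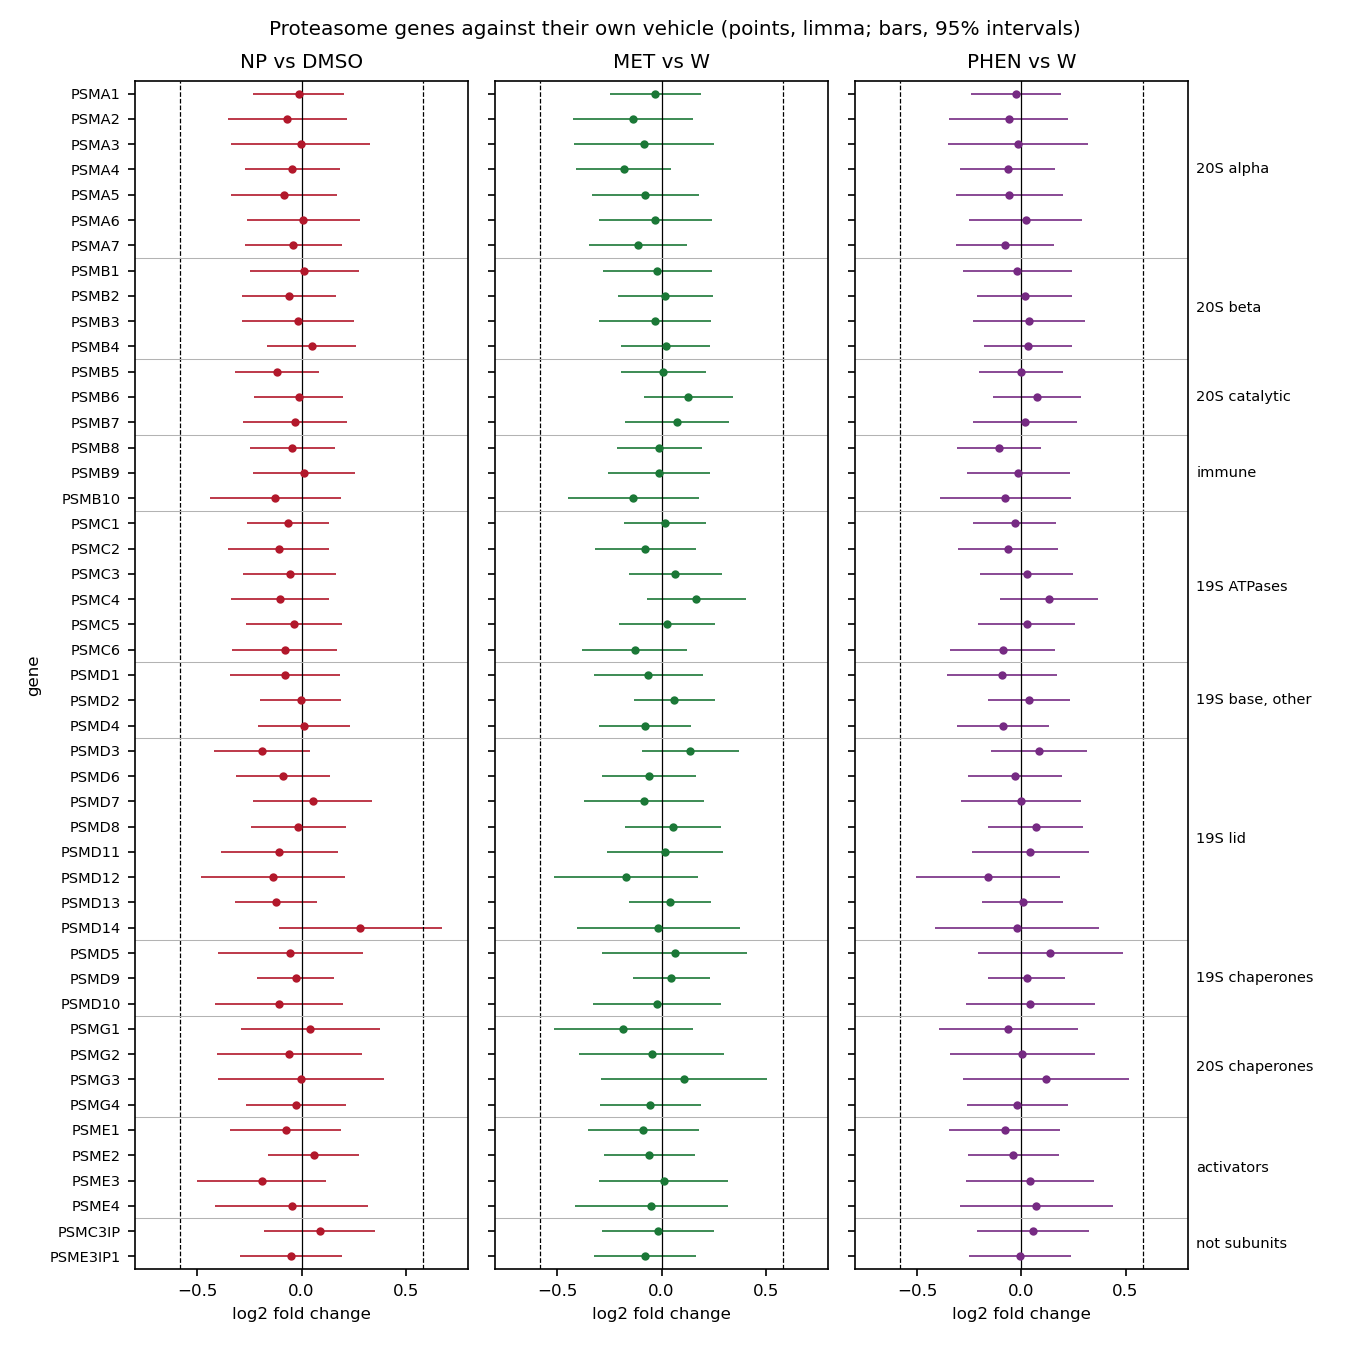
Log2 fold change of 47 proteasome genes against their own vehicle in limma, with points for the estimate, bars for the 95% interval, dashed lines at 1.5-fold and classes separated by grey lines. All intervals cross 0 in the 3 panels, and PSMD14 with NP, at 0.28, is the one estimate whose interval crosses a dashed line.

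The catalytic subunits, which set the cutting activity of the core, did not pass any threshold with NP. PSMB5, the chymotrypsin-like subunit, was at 6.77, 6.68 and 6.72 on the DMSO arrays and at 6.65, 6.62 and 6.54 on the NP arrays (replicates 1 to 3). The groups did not overlap, yet the difference was small, with a log2 fold change of -0.12 (SE 0.091, 95% interval -0.32 to 0.083, limma adjusted p = 1.0). PSMA7, PSMC4 and PSMD13 did not overlap between NP and DMSO either. The share of all features without overlap was not counted, here or for the genes below, so such separation is given as a value only. PSMB6, the caspase-like subunit, was at 6.75, 6.85 and 6.96 in DMSO and at 6.87, 6.82 and 6.82 in NP, within the range of DMSO. PSMB7, the trypsin-like subunit, was at 7.19, 7.11 and 7.34 in DMSO and at 7.13, 7.12 and 7.30 in NP, also within it. Their log2 fold changes were -0.014 (SE 0.096) and -0.031 (SE 0.11).

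The immune catalytic subunits were all expressed, and PSMB8, PSMB9 and PSMB10 overlapped between NP and DMSO. PSMB8 was at 2.31, 2.31 and 2.21 in DMSO and at 2.25, 2.35 and 2.09 in NP. PSMB9 was at 3.17, 3.34 and 3.13 in DMSO and at 3.09, 3.43 and 3.16 in NP. PSMB10 was at 5.92, 5.86 and 5.66 in DMSO and at 5.81, 5.73 and 5.54 in NP, lower in each pair by 0.11 to 0.14 but with overlapping groups. The log2 fold changes were -0.045 (SE 0.091), 0.012 (SE 0.11) and -0.13 (SE 0.14). The interferon-induced partners PSME1 and PSME2, which form the PA28 alpha-beta activator, lay on either side of 0. PSME1 was at 2.10, 1.95 and 1.92 in DMSO and at 2.02, 1.95 and 1.77 in NP, and PSME2 was at 7.96, 7.96 and 8.01 and at 8.00, 8.02 and 8.09. The log2 fold change of PSME2, 0.058 (SE 0.098), was among the 3 highest of the proteasome genes with NP although it was smaller than its SE. PSME2 was higher with NP in each pair.

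PSMD14, the lid enzyme that removes ubiquitin from substrates, had the highest log2 fold change with NP, 0.28 (SE 0.18, 95% interval -0.11 to 0.67, limma adjusted p = 1.0). It was at 5.55, 6.32 and 6.64 on the DMSO arrays and at 6.43, 6.38 and 6.54 on the NP arrays. A single array, DMSO replicate 1, lay below all the others, and the NP arrays lay within the range of the remaining pair of DMSO arrays. Without DMSO replicate 1 the log2 fold change was 0.039, and without both arrays of replicate 1 it was -0.021. The second PSMD14 probe was at 2.41, 2.18 and 2.36 in DMSO and at 2.27, 2.22 and 1.98 in NP, with DMSO replicate 1 the highest of the DMSO arrays, and gave -0.16. The probes of PSMD14 thus differed in sign.

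The lowest values with NP belonged to PSME3, PSMD3 and PSMD12. PSMD3, a scaffold subunit of the lid, was at 4.26, 4.05 and 4.06 in DMSO and at 4.08, 3.85 and 3.87 in NP. It was lower in each pair, by 0.18 to 0.20, and the groups overlapped because replicate 1 was the highest in both. Its log2 fold change was -0.19 (SE 0.10, 95% interval -0.42 to 0.040, unadjusted p = 0.0956 and adjusted p = 1.0 in limma). PSME3, the nuclear activator PA28 gamma, was at 4.38, 4.20 and 4.48 in DMSO and at 4.15, 4.10 and 4.25 in NP, with a log2 fold change of -0.19 (SE 0.14). PSMD12, another lid subunit, was at 4.84, 4.53 and 4.96 in DMSO and at 4.61, 4.53 and 4.77 in NP, with -0.14 (SE 0.16), and pair 2 gave 0.0085. PSMC3IP was at 3.70, 3.62 and 3.48 in DMSO and at 3.71, 3.71 and 3.64 in NP, with 0.086 (SE 0.12).

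**Figure D2:**
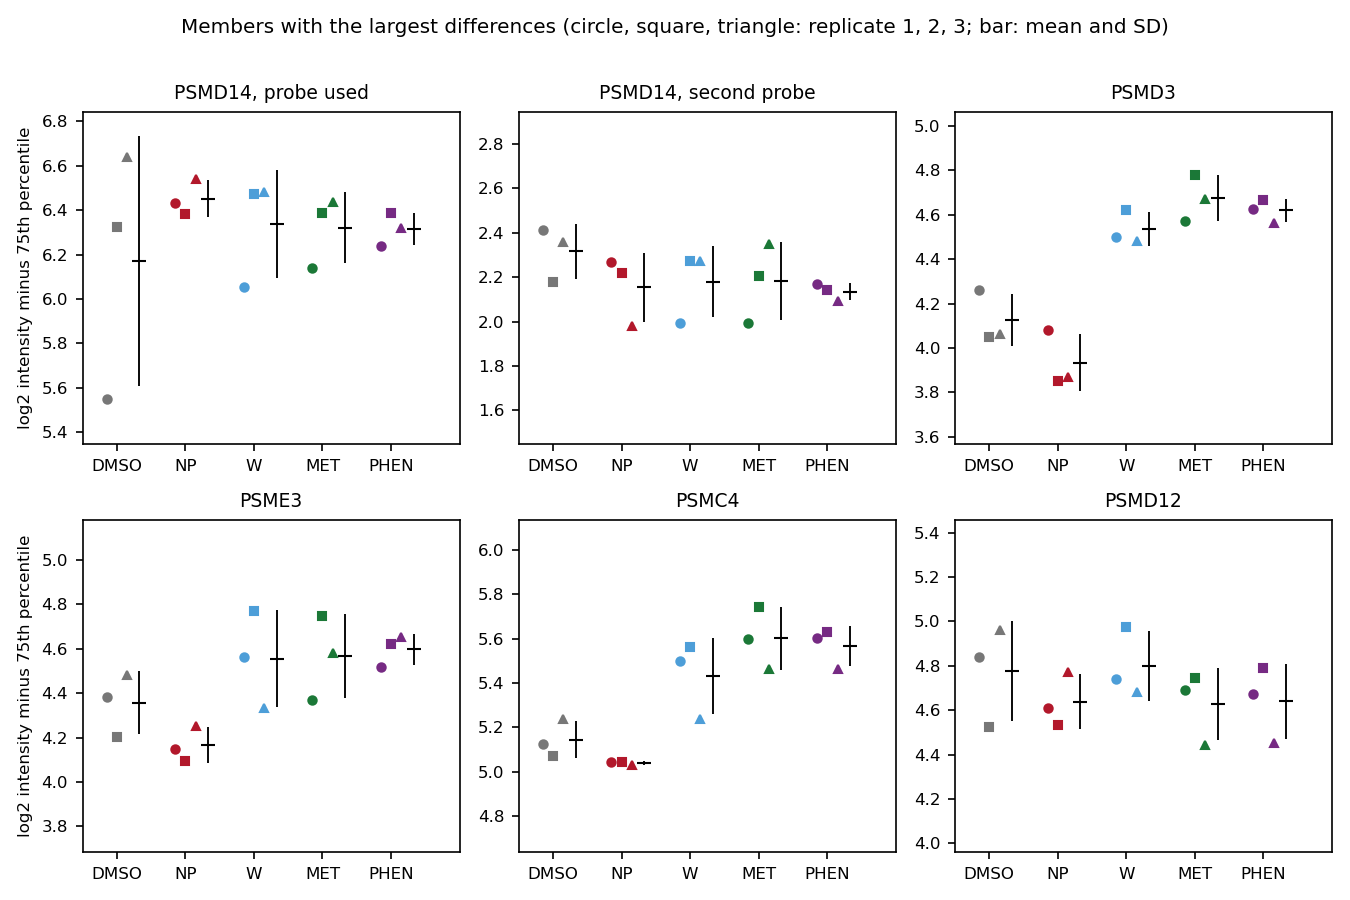
Log2 intensity minus the array's 75th percentile for both PSMD14 probes, PSMD3, PSME3, PSMC4 and PSMD12 in 5 groups, with a symbol per array and a bar for mean and SD (n = 3). DMSO replicate 1 (circle), at 5.55 on the first PSMD14 probe, is low on that probe but not on the second, whereas PSMD3 is shifted from DMSO to NP by 0.18 to 0.20 in each pair.

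With MET, given at 5000 μM, no proteasome gene was a DEG and the share of all features was 0%. None passed an unadjusted p of 0.05 in limma, against 1.38% of features that were higher and 1.07% that were lower. Here too the design mattered at an unadjusted p. PSMC4, PSMD3 and PSMD12 passed with the block within each vehicle set (9.29% of features), PSMC4 with a slide term (7.36%), and PSMA4 with quantile normalization (3.14%) or the groups compared alone (15.0%). The methods' paired t-test passed PSMA2, PSMA4, PSMC3 and PSMC4 (11.7% of features). The median of the 48 genes was -0.02, with 19 above 0 and 29 below, and that of all features was 0.0044, with 51.0% above 0. For 47 of the 48 the 95% interval lay within 1.5-fold (53.0% of all features), PSMB11 being the exception. All 7 alpha subunits had values below 0, from -0.18 for PSMA4 to -0.029 for PSMA1, and all 3 catalytic subunits had values above 0, from 0.0094 for PSMB5 to 0.13 for PSMB6. Of the 48, 11 were lower in all 3 pairs (22.9%, against 20.2% of features) and 6 were higher in all 3 (12.5%, against 22.2%), and both shares lay near or below those of all features.

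PSMC4, an ATPase of the base, had the highest value with MET. It was at 5.50, 5.56 and 5.24 on the W arrays and at 5.60, 5.74 and 5.46 on the MET arrays, with a log2 fold change of 0.17 (SE 0.11, 95% interval -0.068 to 0.40). It was higher in each pair, and the groups overlapped because W and MET were both lowest in replicate 3. PSMD3 was at 4.50, 4.62 and 4.48 in W and at 4.57, 4.78 and 4.67 in MET, with 0.14 (SE 0.10), again higher in each pair. PSMB6 was at 6.90, 7.22 and 7.19 in W and at 7.18, 7.23 and 7.29 in MET, with 0.13 (SE 0.096), and pair 1 gave most of it since W replicate 1 was low.

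At the other end, PSMG1, a chaperone of alpha ring assembly, was at 6.55, 6.88 and 6.96 in W and at 6.50, 6.77 and 6.57 in MET, with -0.18 (SE 0.15), or -0.08 without replicate 3. PSMA4 was at 5.66, 5.81 and 5.99 in W and at 5.47, 5.68 and 5.77 in MET, with -0.18 (SE 0.10, 95% interval -0.41 to 0.046). PSMD12 was at 4.74, 4.98 and 4.68 in W and at 4.69, 4.74 and 4.44 in MET, with -0.17 (SE 0.16). These 3 genes were lower with MET in each pair, but their groups overlapped and every adjusted p in limma was 1.0. The immune subunits showed no larger shifts. PSMB8 was at 2.68, 2.71 and 2.74 in W and at 2.67, 2.67 and 2.76 in MET, PSMB9 was at 3.38, 3.61 and 3.63 and at 3.53, 3.60 and 3.45, and PSMB10 was at 5.97, 6.27 and 6.49 and at 6.02, 6.13 and 6.17. PSMB10 was more spread in W, where its SD was 0.26, than in any other group.

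With PHEN, given at 50 μM, no proteasome gene was a DEG, against 0.0261% of all features (7 of 26826). None passed an unadjusted p of 0.05 in limma, against 0.816% of features that were higher and 1.54% that were lower. The methods' paired t-test passed PSMB8 (5.22% of features). The median of the 48 genes was -0.00096, with 23 above 0 and 25 below, beside -0.034 for all features, with 40.5% above 0. For 47 of the 48 the 95% interval lay within 1.5-fold (55.2% of all features), again with the exception of PSMB11. Of the 48, 3 were lower in all 3 pairs (6.25%, against 14.8% of features) and 5 were higher in all 3 (10.4%, against 12.2%). The pair medians disagreed, at 0.16, -0.042 and -0.13, whereas those of all features were -0.019, -0.026 and -0.012. W replicate 1 had a median deviation of -0.07 from the genes' means over all arrays, and W replicates 2 and 3 had 0.18 and 0.15. Without replicate 1 the median of the 48 genes with PHEN was -0.099, and without replicate 3 it was 0.059.

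The genes at the ends of the PHEN comparison overlapped between groups, PSMB8 excepted. PSMB8 was at 2.68, 2.71 and 2.74 in W and at 2.61, 2.60 and 2.60 in PHEN, lower on every PHEN array than on any W array. The difference was small, with -0.11 (SE 0.091, 95% interval -0.31 to 0.096, limma adjusted p = 1.0). PSMD12 was at 4.67, 4.79 and 4.45 in PHEN, with -0.16 (SE 0.16), and PSMD1, the large scaffold of the base, was at 6.73, 6.80 and 6.92 in W and at 6.83, 6.82 and 6.53 in PHEN, with -0.093 (SE 0.12). PSMD1 was lower in pair 3 only, and without replicate 3 it had 0.056.

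The highest values with PHEN were those of PSMD5, PSMC4 and PSMG3. PSMD5, a chaperone of base assembly, was at 1.51, 2.12 and 1.80 in W and at 1.97, 2.02 and 1.86 in PHEN, with 0.14 (SE 0.16), and without replicate 1 it had -0.018. PSMC4 was at 5.60, 5.63 and 5.46 in PHEN, with 0.13 (SE 0.11), and was higher in each pair. PSMG3, an alpha ring chaperone, was at 4.80, 5.01 and 4.78 in W and at 5.01, 5.15 and 4.79 in PHEN, with 0.12 (SE 0.18). The catalytic subunits PSMB5, PSMB6 and PSMB7 had -0.0016 (SE 0.091), 0.075 (SE 0.096) and 0.016 (SE 0.11) with PHEN, and PSMD14 had -0.021 (SE 0.18).

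Because the biguanides were given at different doses and share the same W arrays, their values are only set side by side. PSMD12 had -0.17 with MET and -0.16 with PHEN, PSMC4 had 0.17 and 0.13, PSMD3 had 0.14 and 0.084, PSMB10 had -0.14 and -0.076, and PSMA4 had -0.18 and -0.065. Other genes differed in sign, among them PSMC1 (0.017 and -0.032) and PSMB3 (-0.032 and 0.038). Genes of like and unlike sign were not counted. The effect of NP was set against each biguanide as a difference of differences, each against its own vehicle. No proteasome gene differed between NP and MET at an adjusted p of 0.05, against 0% of all features, and 1 of 48 did at an unadjusted p, against 2.79%. This gene was PSMD3, at -0.19 with NP and 0.14 with MET, a difference of -0.33 (SE 0.15, 95% interval -0.66 to -0.0028, unadjusted p = 0.0484 and adjusted p = 1.0 in limma), and it was singled out after its value was seen. Between NP and PHEN no proteasome gene differed at an adjusted p (0% of all features) or at an unadjusted p (2.43%), and PSMD3 had a difference of -0.28 (SE 0.15). PSMC4, at -0.10 with NP, differed by -0.27 (SE 0.15) from MET and by -0.24 (SE 0.15) from PHEN. For 40 of 48 genes in either contrast the 95% interval of the difference lay within 1.5-fold. The shares of all features were 30.2% for NP against MET and 33.9% for NP against PHEN. For the remaining 8 genes, PSMB11 among them in both contrasts, the interval reached beyond 1.5-fold.

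More DEGs separated the vehicles than any treatment and its vehicle. DMSO and W lay on different slides, so that vehicle and slide cannot be told apart. DMSO vs W gave 1 DEG among the 48, PSME4, against 10.6% of all features. At an adjusted p of 0.05 without a fold threshold, PSMD5 and PSME4 were higher in DMSO (5.14% of features were) and 7 genes were lower (14.6%, against 12.1%). These 7 were the catalytic PSMB5 and PSMB8, the ATPases PSMC3 and PSMC5, the lid subunits PSMD3 and PSMD13, and the chaperone PSMD9. The median of the 47 genes without PSMB11 was -0.17, with 7 above 0 and 40 below. That of all features was -0.12, with 38.6% above 0. With PSMB11 it was -0.18, and quantile normalization brought it to -0.028.

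PSME4, the PA200 activator, was at 2.64, 2.33 and 2.87 on the DMSO arrays and at 1.63, 2.05 and 1.79 on the W arrays. The groups were apart, with a log2 fold change of 0.79 (SE 0.17, limma adjusted p = 0.0138), and its second probe gave 0.41. The call was lost without each of replicates 1, 2 and 3 in turn, at 0.68, 1.04 and 0.64, and with only the groups compared in the fit. PSMC3 was at 4.70, 4.67 and 4.76 in DMSO and at 5.20, 5.36 and 5.21 in W, with -0.54 (SE 0.10, adjusted p = 0.00875), the smallest p of the 48. PSMB8 had -0.44 (SE 0.091, adjusted p = 0.0138) and PSMB5 had -0.33 (SE 0.091, adjusted p = 0.0344). PSMD5 depended on the probe, with 0.53 (SE 0.16, adjusted p = 0.0444) for the brighter and -0.60 for the other.

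Set against DMSO in place of W, on the other slides, MET had 3 DEGs among the 48 proteasome genes tested (PSMC3, PSME4 and PSMG3). PHEN had 2 (PSME4 and PSMG3). Among all 26826 features MET had 4568 DEGs and PHEN 2761 on that comparator, so the counts are given as values only. PSME4 had -0.84 with MET and -0.71 with PHEN, and PSMG3 had 0.66 and 0.67, on that comparator. On W their values were -0.05 and 0.072 for PSME4 and 0.11 and 0.12 for PSMG3.

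Of the 48 genes tested, 14 had a second probe. The probes differed by a median of 0.079 in NP vs DMSO, 0.08 in MET vs W and 0.051 in PHEN vs W, and by 0.27 in DMSO vs W. The widest gap with NP, 0.56, was that of PSMC2, an ATPase of the base, whose bright probe gave -0.11 and whose dim probe gave -0.67. On the dim probe a single array, DMSO replicate 3, stood at 1.82 while every other array lay at or below 0.56.

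Other proteins of the pathway were followed in 48 genes without these symbols, of which 45 were tested, and none of the 45 was a DEG with NP, MET or PHEN in limma. At an unadjusted p of 0.05, 1 of 45 was higher and 1 was lower with NP, near the 2.81% and 1.88% of all features, so both are given as values only, and none was with MET or PHEN. The higher one was DDI2, the protease that activates NFE2L1. It was at -3.24, -3.26 and -2.96 in DMSO and at -1.58, -2.44 and -2.74 in NP, apart on every array and close to the dim end of the arrays though above background on all 15. Its log2 fold change was 0.90 (SE 0.23, unadjusted p = 0.0031 and adjusted p = 0.547 in limma), and it had -0.26 with MET and 0.060 with PHEN. NFE2L1 itself was at 5.54, 5.52 and 5.81 in DMSO and at 5.63, 5.77 and 6.17 in NP, higher in each pair, with 0.24 (SE 0.13). NGLY1, which removes glycans from NFE2L1, had 0.15 (SE 0.10).

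The gene that was lower was NPLOC4, a cofactor of the p97 segregase, with -0.20 (SE 0.081, unadjusted p = 0.0302 and adjusted p = 1.0 in limma). POMP, the maturation factor of the core, had the second largest difference of the list with MET, -0.23 (SE 0.15). With PHEN, UBA1, the main ubiquitin-activating enzyme, had 0.18 (SE 0.10). The medians of the 45 genes were -0.005 with NP, 0.011 with MET and 0.015 with PHEN, beside -0.045, -0.02 and -0.00096 for the proteasome genes.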

How the data were processed

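Total RNA of 15 samples was labeled with 1 dye and hybridized by the authors to Agilent human arrays designed on hg19. The deposited spot intensities were extracted with Agilent Feature Extraction, version 10.7.3.1 per the file headers and 9.1 per the submitters' processing notes, with background subtraction and detrending but no normalization between arrays. The authors also deposited log2 values aligned at the 75th percentile, in which values under 4 were set to 4. The log2 processed intensity minus the array's 75th percentile was used here. Outlier spots (1853) were left out. A probe had to exceed background on the 3 arrays of some group, which 32914 of 58201 probes did. The brightest such probe stood for its gene, and features with values on at least 8 arrays were kept. Of 33080 probes with a RefSeq accession, 31104 matched a current symbol.

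limma 3.58.1 (R 4.3.3) was fitted to all 15 arrays with the group and the replicate number, two-sided, after a test on simulated data. The replicate number was the block because the study's methods pair the replicates, and the main fit shared this block across both vehicle sets. Deviations of same-numbered arrays correlated in all 9 pairs within the vehicle sets (r of 0.24 to 0.86). In each set replicates 1 and 2 lay on one slide and replicate 3 on another. Differently numbered arrays were not correlated, so these values do not separate pairing from slide. Summaries and figures used Python 3.11.15, pandas 2.3.3, numpy 2.4.6 and matplotlib 3.10.9. The members, the gene lists and the naming rule (the catalytic and immune subunits, PSME1, PSME2, PSMD14, the 3 highest and 3 lowest members per comparison, DEGs, and the 2 pathway genes with the largest change) were chosen with earlier results of these data known. A pathway gene that this rule names is not reported here. PSMA1, PSMC2, PSMC3, the genes passing only under an alternative, NGLY1, NPLOC4 and, in DMSO vs W, the genes at an adjusted p were named after their values were seen. The 3 arrays per group limit the precision. Alternatives were no replicate block, the block within each vehicle set, a slide term, normexp (offset 50, on the median spot signal), quantile normalization, the authors' table, other filters, the mean of probes, the groups compared alone, the paired test of the methods, DMSO as the comparator and each replicate left out, and, added after seeing the data, DMSO replicate 1 or W and MET replicate 1 left out.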

Additional observations from a re-analysis of the deposited data

How the results depend on the processing

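With NP no proteasome gene was a DEG under any of 16 alternatives, and with MET and PHEN none was with W as the comparator. Some alternatives gave 0 DEGs among all features with NP, MET and PHEN, which fixed a count of 0 for the proteasome genes. These were no filter on dim probes, the groups compared alone, the adjusted paired t-test and each replicate left out. With DMSO as the comparator MET gave 3 DEGs and PHEN 2 among the 48, beside 4568 and 2761 among all 26826 features. The MET median then moved from -0.02 to 0.10 and the PHEN median from -0.00096 to 0.14. Against W, DMSO gave 1 DEG, 4 with normexp, 2 with the mean of a gene's probes, 2 without W and MET replicate 1, 0 with only the groups compared or by the methods' t-test with or without Benjamini-Hochberg adjustment, and 0 to 3 with each replicate left out. Its median moved from -0.18 to -0.028 under quantile normalization and lay between -0.25 and -0.12 with each replicate left out. The cause of these shifts was not tested. The NP median lay between -0.059 and -0.026 with each replicate left out, that of MET between -0.065 and 0.004 and that of PHEN between -0.099 and 0.059.

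Without the replicate block the proteasome genes gave 0, 0, 0 and 1 DEGs in NP vs DMSO, MET vs W, PHEN vs W and DMSO vs W, as with it. Among all features the pairing mattered more, with 3, 0, 0 and 1926 DEGs without the block against 10, 0, 7 and 2845 with it. Over all alternatives that kept the comparator, these counts ran from 0 to 214 for NP, 0 to 124 for MET, 0 to 168 for PHEN and 0 to 5053 for DMSO vs W, the highest of the first 3 being the methods' t-test without adjustment. With DMSO as the comparator they were 4568 for MET and 2761 for PHEN. Differences of dim probes such as those of PSMB11 and DDI2 are limited by signal over background. A slide term could not be fitted for DMSO vs W, whose groups share no slide.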
